A study of Mus musculus with 30 samples.

Results

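The 10 genes of cellular iron handling described here were followed through mouse microglia cultures: the importers Tfrc, Slc11a2 and Slc11a1, the ferritin subunits Fth1 and Ftl1 with the ferritin receptor Ncoa4, the exporter Slc40a1 with the ferroxidase Cp, and the regulators Aco1 and Ireb2. Members were the rows of the deposited table whose symbol is on this list, and all 10 were found among 13788 genes and passed the filter on low values. The messages of 4 members carried iron-responsive hairpins. The clearest differences were in Slc40a1, which was lower in the PD-1 KO-labelled libraries, in Cp, which was higher in them, and in Slc11a2, which was higher at 8 h than at 0 h.

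Cells take up transferrin-bound iron through the transferrin receptor, move it out of endosomes through divalent metal transporters, store it inside ferritin shells and release it through ferroportin, the product of Slc40a1. Microglia and other macrophages also recover iron from the cells and debris they engulf. The iron regulatory proteins bind a hairpin, the iron-responsive element. A bound hairpin in the 5' UTR blocks translation, and bound hairpins in the 3' UTR protect the message from decay.

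RNA was sequenced from primary microglia that had been shaken off brain cultures after 5 to 8 days. Libraries with the genotype label PD-1 KO covered 5 conditions, namely 0 h, 2 h without and with amyloid-beta, and 8 h without and with amyloid-beta, and those with the label WT covered the same 5. Each of the 10 groups had 3 libraries, 30 in all, and amyloid-beta was given as conditioned medium. The labels name no strain, age, allele or promoter, do not say which medium the cultures without amyloid-beta received, and do not say whether the libraries of a group came from separate animals, so every p-value below rests on the spread among libraries, which may be technical.

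Values are the deposited signal, which is reads per gene divided by a size factor of each library and floored at 1. The reads recovered from them ran from 4227019 to 48509985 per library. Pdcd1, the gene that encodes PD-1, reached 6.02 to 25.3 in the 15 PD-1 KO libraries and stayed at the floor in the 15 WT ones, which goes against the labels, so groups are named as labelled throughout. The microglial genes Csf1r, Aif1 and Cx3cr1 were detected in every library, and the sum of 14 microglial markers ran from 70429 to 124567 in PD-1 KO-labelled libraries and from 89454 to 164271 in WT. The sum of 9 astrocyte markers, none of them at the floor, ran from 11239 to 28159 in PD-1 KO-labelled libraries and from 1226 to 3824 in WT. All 9 passed the limma test described below in each of the 5 conditions, in which 20.7% to 38.9% of all genes passed. Between PD-1 KO and WT, summed markers of the oligodendrocyte lineage (6541 to 10829 against 2494 to 5688), of ependyma and choroid plexus (1769 to 7728 against 429 to 2057) and of neurons (1087 to 1811 against 543 to 951) stood higher in the PD-1 KO ones. Those of fibroblasts and vessels ran from 1122 to 1860 in PD-1 KO-labelled libraries and from 585 to 1828 in WT. None of the 10 markers sought for neutrophils, lymphocytes and red cells was among the deposited genes. The part of other cells in the differences between labels was not tested, and in bulk RNA fewer cells of a type and less RNA per cell cannot be told apart.

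The hairpins of the messages are shown first, because iron regulatory proteins are known to bind hairpins of this kind. The UTRs of GENCODE transcripts (release vM21, GRCm38) were searched on the sense strand for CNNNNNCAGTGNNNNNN, in which the 5 bases before CAGTGN had to pair with the 5 bases after it, G with T allowed. Capitals mark the bulged C and the 6-base loop. Tfrc, on the plus strand of chromosome 16, held 4 in its 3' UTR.
Tfrc, chr16:32631219-32631247: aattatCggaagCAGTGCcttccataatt
Tfrc, chr16:32631598-32631626: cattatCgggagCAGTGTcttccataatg
Tfrc, chr16:32631663-32631691: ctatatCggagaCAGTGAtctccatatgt
Tfrc, chr16:32631710-32631738: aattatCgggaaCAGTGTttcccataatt

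The ferritin subunits and the exporter held 1 each in the 5' UTR. Fth1 lies on the plus strand, and Ftl1 and Slc40a1 lie on the minus strand.
Fth1, chr19:9982732-9982760: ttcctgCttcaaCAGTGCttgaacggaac
Ftl1, chr7:45459779-45459807: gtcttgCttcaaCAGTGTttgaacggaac
Slc40a1, chr1:45925465-45925493: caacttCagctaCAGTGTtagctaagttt

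The 5 paired bases on each side of the loop are the same in Fth1 and Ftl1, and those of Slc40a1 differ from them. The first 5 letters of each loop were set by the search, and the last is T in Ftl1 and Slc40a1 and C in Fth1. A match was found in the 5' UTR of 31 of 20916 genes (0.148%) and in the 3' UTR of 129 of 21707 genes (0.594%). The other 6 members had no match to these letters, which says nothing about other forms of the hairpin. Isoforms of Slc11a2 are known to carry one in the 3' UTR. Read counts measure the message and not its translation.

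The members spanned a wide range of levels. Per kilobase of merged exons, the mean deposited signal over all 30 libraries was 135367 for Ftl1 and 41532 for Fth1, then 1836 for Slc11a1, 419 for Slc40a1, 352 for Slc11a2, 259 for Ncoa4, 230 for Aco1, 162 for Cp, 145 for Tfrc and 100.4 for Ireb2. Both ferritin subunits were thus far above every other member on this scale. The order of the others depended on the label. Slc40a1 had 332 per kilobase in PD-1 KO-labelled libraries and 505 in WT, Slc11a2 had 367 in PD-1 KO-labelled libraries and 337 in WT, and Cp had 282 in PD-1 KO-labelled libraries and 41.4 in WT, the lowest of the 10 there. Ferritin genes have processed copies elsewhere in the genome, none of which was analysed here, so the reads counted for Fth1 and Ftl1 are uncertain to that extent.

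**Figure D1:**
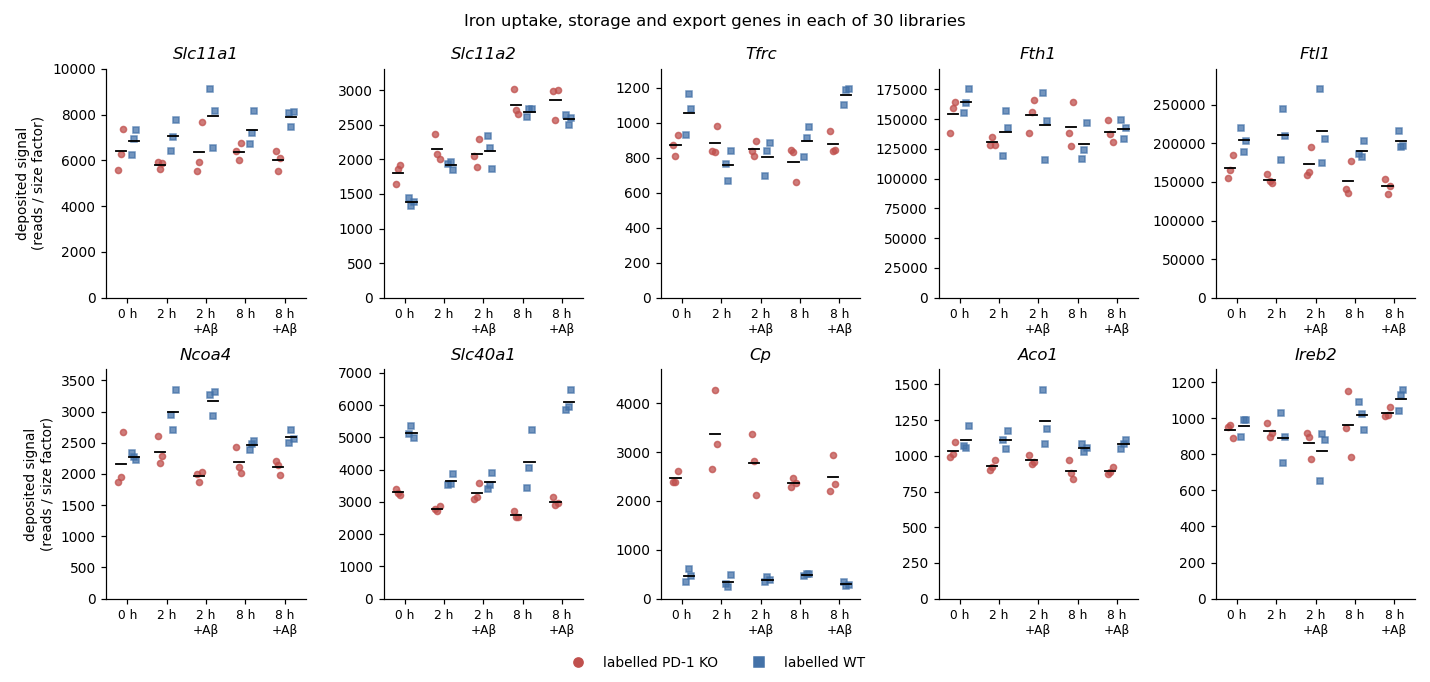
Deposited signal (y axis, linear from 0) of the 10 members in each library, by condition (x axis; +Aβ, amyloid-beta). Circles are PD-1 KO-labelled libraries, squares those labelled WT, and black lines the means of 3. Cp separates the labels in every condition, with 2122 to 4266 in PD-1 KO-labelled libraries and 240 to 607 in WT.

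Differences were tested with limma on log2(value + 1), on which scale changes below are given as difference ± SE, with Benjamini-Hochberg adjustment over all 13722 genes tested and a threshold of 0.05. Between PD-1 KO-labelled libraries and WT, 3 of 10 members passed at 0 h (20.7% of all genes tested), 5 at 2 h (32.2%), 4 at 2 h with amyloid-beta (38.9%), 3 at 8 h (27%) and 7 at 8 h with amyloid-beta (33.7%). Averaged over the 5 conditions, 8 members passed, Slc11a2 and Cp higher and 6 lower, against 59.5% of all genes. The members' share was furthest above that of all genes at 8 h with amyloid-beta and nearest to it at 2 h with amyloid-beta and at 8 h. The median difference of the members in that average was -0.18, beside -0.02 over all genes. Quantile normalization moved the median of all genes in the average to -0.11, with 3257 genes higher and 6271 lower, against 4163 higher and 3995 lower in the deposited scaling. Under it 3 members were higher (Fth1, Slc11a2 and Cp) and 3 lower (Slc40a1, Ncoa4 and Aco1), Ftl1, Slc11a1 and Tfrc did not pass, and the members' median was 0.0045.

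Over time without amyloid-beta, 2 members passed at 8 h against 0 h in PD-1 KO-labelled libraries (3.29% of all genes) and 1 in WT (6.05%). At 2 h against 0 h, 0 members passed in PD-1 KO-labelled libraries (0.634% of all genes; limma, 2 members at an unadjusted p under 0.05, and 0 adjusted with voom), and 4 in WT (4.75%). Between 8 h and 2 h, both with amyloid-beta, 1 member passed in PD-1 KO-labelled libraries (1.71%) and 5 in WT (24.7%). The difference of these time courses between the labels passed for 0 members at 2 h (0.736% of all genes; limma, 2 members at an unadjusted p under 0.05, and 0 adjusted with voom) and for 0 at 8 h (0.27%; 1 member unadjusted, 0 with voom).

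Amyloid-beta against none moved 1 member past the threshold, Slc40a1 in WT at 8 h (2.18% of all genes). In limma, 0 members passed in PD-1 KO-labelled libraries at 8 h (0.0583% of all genes; 1 member at an unadjusted p under 0.05), in PD-1 KO-labelled ones at 2 h (0%; 2 unadjusted) and in WT at 2 h (0%; 0 unadjusted). Over all genes at 2 h, 615 genes in PD-1 KO-labelled libraries and 681 in WT had an unadjusted p under 0.05, and voom called 0 and 14 genes. The difference of the amyloid-beta effect between the labels passed for 0 members at 2 h (0.051% of all genes; 1 unadjusted) and for 0 at 8 h (0%; 2 unadjusted). Voom called 0 members in each of these 5 comparisons as well.

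**Figure D2:**
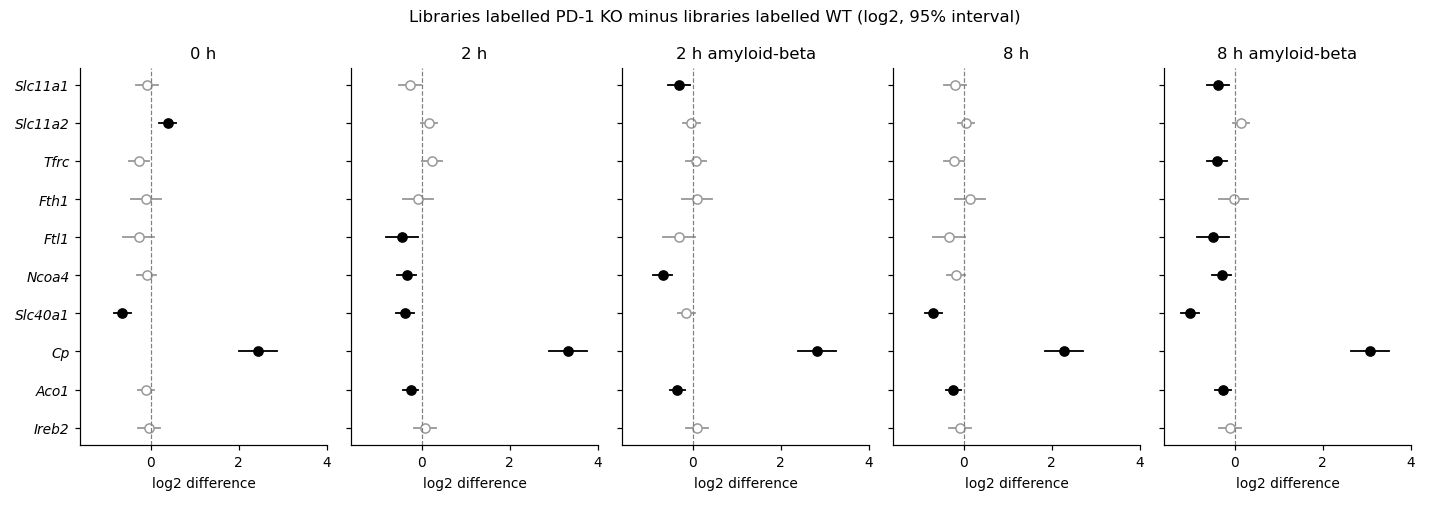
Log2 difference (x axis) of PD-1 KO-labelled libraries minus those labelled WT for the 10 members (rows) in each condition (panels), from 3 libraries against 3. Bars are 95% intervals from limma and filled points passed the adjusted threshold. Cp stands to the right of 0 in all 5 panels, from 2.28 to 3.32, and Slc40a1 to the left, from -1.01 to -0.14 (0.07 under quantile normalization in the condition of -0.14).

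Slc11a2 encodes the divalent metal transporter DMT1, which carries iron out of endosomes. It rose with time under both labels. In PD-1 KO-labelled libraries it had 3010, 2713 and 2649 at 8 h, against 1640, 1859 and 1921 at 0 h, a log2 difference of 0.63 ± 0.09 (adjusted p = 4.64e-05). In WT it had 2610, 2729 and 2725 at 8 h, against 1444, 1331 and 1382 at 0 h, a difference of 0.96 ± 0.09 (adjusted p = 3.61e-08). The groups did not overlap under either label, as for 17.1% of all genes in PD-1 KO-labelled libraries and 26% in WT. The difference between the labels in this change, -0.33 ± 0.13, did not pass (adjusted p = 0.344).

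In PD-1 KO-labelled libraries Slc11a2 had 2366, 2071 and 2008 at 2 h, and the difference from 0 h, 0.25 ± 0.09, did not pass (adjusted p = 0.330). At 2 h Slc11a2 in WT stood between these levels, with 1938, 1961 and 1846, and the difference from 0 h was 0.47 ± 0.09 (adjusted p = 0.00212; 0.0625 with only the groups compared). With amyloid-beta, the 8 h PD-1 KO-labelled libraries had 2986, 2567 and 2996, against 2052, 1887 and 2300 at 2 h. That difference of 0.46 ± 0.09 passed (adjusted p = 0.00434). It did not pass without replicate 2 of the 2 h group (0.0517) or with only the groups compared (0.0621). The difference of Slc11a2 with amyloid-beta against none at 8 h was 0.03 ± 0.09 in PD-1 KO-labelled libraries and -0.06 ± 0.09 in WT, neither past the threshold. The serial numbers in the library titles form 1 run for 0 h and 2 h and another for 8 h, so time and that run cannot be told apart in the comparisons of 8 h with earlier times.

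At 0 h Slc11a2 was also higher in PD-1 KO-labelled libraries than in WT, by 0.38 ± 0.09 (adjusted p = 0.00244), with no overlap (34.1% of all genes had none). The differences at the later conditions, from -0.03 to 0.16, did not pass, except with quantile normalization, where adjusted p was 0.0125 at 2 h and 0.0245 at 8 h with amyloid-beta.

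Tfrc encodes the transferrin receptor. In WT it fell at 2 h to 766, 667 and 840, against 928, 1163 and 1081 at 0 h, a difference of -0.48 ± 0.11 (adjusted p = 0.01). The call was lost without replicate 2 or 3 of the 0 h group, without replicate 2 of the 2 h group, and with only the groups compared (adjusted p up to 0.165). In PD-1 KO-labelled libraries the same difference was 0.02 ± 0.11, and the difference between the labels, 0.50 ± 0.16, did not pass (adjusted p = 0.135).

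The highest Tfrc values were in WT at 8 h with amyloid-beta, at 1102, 1185 and 1191. Libraries labelled PD-1 KO in that condition had 952, 838 and 847, a difference of -0.40 ± 0.11 (adjusted p = 0.00564) with no overlap (55.6% of all genes had none). Without amyloid-beta the WT libraries at 8 h had 803, 914 and 978, all below those with it (23.1% of all genes had no overlap there). The difference of 0.37 ± 0.11 did not pass (adjusted p = 0.0769; 0.0453 without WT 8 h replicate 3). Between 8 h and 2 h, both with amyloid-beta, Tfrc rose in WT by 0.53 (adjusted p = 0.00112). That call was kept with each library left out and under each alternative (adjusted p up to 0.0311). In PD-1 KO-labelled libraries the same difference did not pass. Group means of Tfrc ran from 758 in WT at 2 h to 1160 in WT at 8 h with amyloid-beta, and in the order of the 10 groups each neighbouring pair overlapped.

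Slc11a1 encodes NRAMP1, a metal transporter of the phagosome membrane in macrophages. Its signal ran from 5525 to 7671 with a median of 6012 in PD-1 KO-labelled libraries, and from 6223 to 9097 with a median of 7306 in WT. At 8 h with amyloid-beta it was lower in PD-1 KO-labelled libraries (-0.39 ± 0.12, adjusted p = 0.0131), a call that was lost without PD-1 KO 8 h amyloid-beta replicate 2 (0.0768) and with quantile normalization (-0.15, adjusted p = 0.222). The average over conditions was -0.26 ± 0.05 (adjusted p = 0.000197), and with quantile normalization it came to -0.04 and did not pass (adjusted p = 0.456). At 2 h with amyloid-beta the difference of -0.32 ± 0.12 (adjusted p = 0.0394) turned to 0.06 under quantile normalization, the groups overlapped, and the call was lost without PD-1 KO replicate 1 or 2 or WT replicate 1 or 3 (adjusted p up to 0.226).

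Among 11 other genes of iron uptake in the file, 8 were higher and 1 lower in PD-1 KO-labelled libraries over the 5 conditions, with a median of 1.30, beside -0.02 over all genes, of which 59.5% were called. The reductases Steap4 (3.79 ± 0.16), Steap3 (1.68 ± 0.06) and Cybrd1 (2.48 ± 0.13), which turn ferric into ferrous iron, and Lcn2 (3.85 ± 0.14), which binds iron-loaded siderophores, had the largest differences. Lcn2 averaged 2525 in PD-1 KO-labelled libraries and 182 in WT. These are the same libraries in which the summed astrocyte markers stood higher, and the part of that in the list was not tested. In WT, Steap3 was lower at 2 h (-0.73 ± 0.13) and at 8 h (-0.79 ± 0.13) than at 0 h. Steap4 was lower with amyloid-beta than without in WT at 8 h (-2.05 ± 0.36).

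Fth1 and Ftl1 encode the heavy ferritin subunit, which oxidises iron, and the light subunit, which helps to form its mineral core. Fth1 did not differ past the threshold in any comparison in the deposited scaling. It ran from 127107 to 166370 with a median of 138184 in PD-1 KO-labelled libraries, and from 115459 to 174922 with a median of 146979 in WT. The average difference was 0.01, with an interval from -0.15 to 0.16, and quantile normalization gave 0.40 (adjusted p = 2.09e-07). Quantile normalization gives every library the same set of values. The 10 genes highest in a library held 9.31% to 11.2% of its signal in PD-1 KO-labelled libraries and 11.7% to 14.1% in WT. The part of this in the changes of ferritin under quantile normalization was not tested.

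Ftl1 ran from 134604 to 195834 with a median of 154829 in PD-1 KO-labelled libraries, and from 174339 to 269788 with a median of 202865 in WT. The average difference over the conditions was -0.37 ± 0.08 (adjusted p = 0.000177) in the deposited scaling, and with quantile normalization it came to 0.06 and did not pass. At 8 h with amyloid-beta, Ftl1 had 153864, 134604 and 144742 in PD-1 KO-labelled libraries, against 215898, 195706 and 196422 in WT. This difference of -0.49 ± 0.18 (adjusted p = 0.0316) was lost without any of the libraries but PD-1 KO replicate 1 (adjusted p up to 0.114), and turned to 0.03 with quantile normalization. The call at 2 h, -0.45 ± 0.18 (adjusted p = 0.0493), was lost without any but WT replicate 1 (adjusted p up to 0.241). It was also lost with a pseudocount of 10 (0.0532), no filter (0.0519), TMM factors (0.0746) and only the groups compared (0.12). The difference turned to 0.07 with quantile normalization.

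The ratio of the 2 subunits within a library does not depend on the size factor. Ftl1 over Fth1 ran from 0.982 to 1.25 with a median of 1.11 in the 15 PD-1 KO-labelled libraries, and from 1.15 to 1.60 with a median of 1.47 in the 15 labelled WT. The groups did not overlap in any of the 5 conditions. The average difference of the log2 ratio, PD-1 KO minus WT, was -0.38, with p = 1e-05 in a two-sided permutation test within conditions. That is the smallest p-value 100000 resamples can give, and it was the same after adjustment over the 2 ratios tested. Both ratios were chosen after the data were seen, and 59.5% of all genes were called between the labels on average. The share of other gene pairs that separate the labels or reach this p-value was not computed, so it does not single out ferritin. In WT the ratio averaged 1.51 ± 0.05 at 2 h and 1.24 ± 0.15 at 0 h (SD, n = 3). A ratio shows that the subunits' reads differed unequally and not which of them changed.

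**Figure D3:**
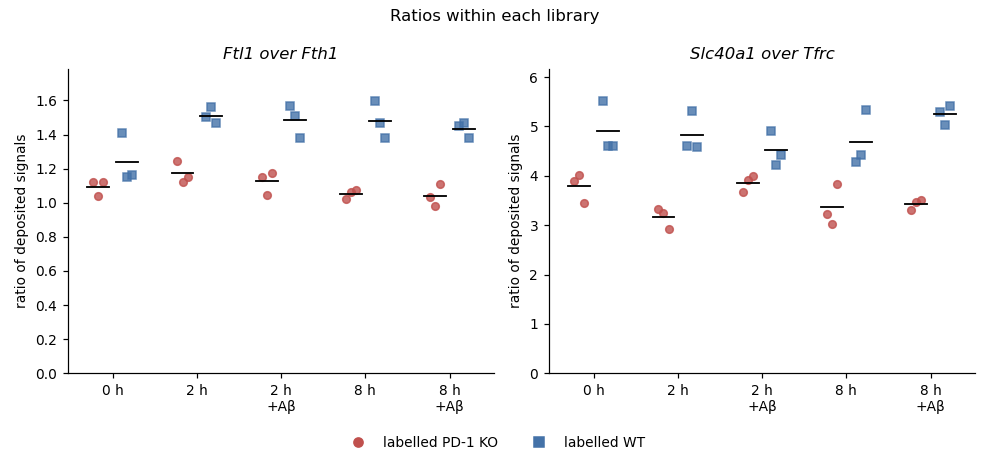
Ratios of deposited signals within each library (y axes, from 0) by condition (x axes), Ftl1 over Fth1 on the left and Slc40a1 over Tfrc on the right. Circles are PD-1 KO-labelled libraries, squares those labelled WT, and black lines the means of 3. In each condition the 3 PD-1 KO-labelled libraries lie below the 3 labelled WT in both panels.

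Ncoa4 encodes the receptor that delivers ferritin to the lysosome, where its iron is set free. At 2 h with amyloid-beta it had 2004, 1871 and 2035 in PD-1 KO-labelled libraries, against 3264, 2936 and 3317 in WT. The difference of -0.69 ± 0.10 (adjusted p = 5.44e-06) held with each library left out. In the same condition 9 of the 14 microglial markers were lower and 0 higher, in a comparison in which 38.9% of all genes were called. Their sum was 71852 to 87635 in PD-1 KO-labelled libraries and 140065 to 164271 in WT, and its part in the difference was not tested. Smaller differences passed as well. That at 2 h (-0.35 ± 0.10, adjusted p = 0.0115) was lost without PD-1 KO replicate 2 or WT replicate 3. At 8 h with amyloid-beta the difference (-0.30 ± 0.10, adjusted p = 0.0279) was lost without replicate 2 or 3 of either label, with adjusted p up to 0.111.

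In WT, Ncoa4 was higher at 2 h than at 0 h, with 2939, 2711 and 3343 against 2339, 2268 and 2218. The difference of 0.39 ± 0.10 (adjusted p = 0.0256) was lost without WT 0 h replicate 2 or 3, without WT 2 h replicate 3, with voom and with only the groups compared (adjusted p up to 0.146). In the same comparison 8 of the 14 microglial markers were higher and 0 lower, where 4.75% of all genes were called, and the sum of all 14 was 133670 to 160947 at 2 h against 89454 to 111817 at 0 h in WT. Their part in the change was not tested.

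Slc40a1 encodes ferroportin, the iron exporter of the cell surface. At 0 h it had 3391, 3267 and 3217 in PD-1 KO-labelled libraries, against 5112, 5352 and 4981 in WT, a difference of -0.64 ± 0.10 (adjusted p = 1.76e-05). At 8 h it had 2716, 2515 and 2527 in PD-1 KO-labelled libraries, against 3435, 4036 and 5222 in WT (-0.69 ± 0.10, adjusted p = 4.16e-06). At 8 h with amyloid-beta the values were 3143, 2911 and 2976 in PD-1 KO-labelled libraries, against 5843, 5952 and 6459 in WT (-1.01 ± 0.10, adjusted p = 3.47e-09), a fold of 0.495. In these 3 conditions every library labelled PD-1 KO lay below every WT library, and 34.1% of all genes at 0 h, 40.4% at 8 h and 55.6% at 8 h with amyloid-beta also had groups that did not overlap. The sum of 14 microglial markers at 8 h with amyloid-beta was 70429 to 81891 in PD-1 KO-labelled libraries and 100096 to 101795 in WT. At 0 h and at 8 h without amyloid-beta the sums of the labels overlapped. The part of these sums in the differences was not tested.

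At 2 h the margin was smaller, with 2792, 2709 and 2865 in PD-1 KO-labelled libraries, against 3527, 3549 and 3848 in WT (-0.38 ± 0.10, adjusted p = 0.00314). With amyloid-beta at 2 h the groups overlapped, and the difference of -0.14 did not pass (interval -0.34 to 0.06, adjusted p = 0.253), with 0.07 under quantile normalization (adjusted p = 0.571). The calls at 0 h, 2 h, 8 h and 8 h with amyloid-beta were kept under each alternative and each left-out library. In the order of group means, the 5 PD-1 KO groups (2586 to 3292) lay below the 5 WT groups (3616 to 6085), and the closest pair across that border, PD-1 KO at 0 h and WT at 2 h with amyloid-beta, did not overlap but nearly touched, at 3391 and 3410.

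Over time, Slc40a1 in WT was lower at 2 h than at 0 h (-0.50 ± 0.10, adjusted p = 0.00244; 0.0625 with only the groups compared). In PD-1 KO-labelled libraries the difference at 2 h, -0.24 ± 0.10, did not pass. At 8 h against 0 h it was -0.35 ± 0.10 in PD-1 KO-labelled libraries (adjusted p = 0.0419), a call that was lost without any 1 of the 6 libraries and under 3 other settings. In WT the same difference was -0.30 ± 0.10 (adjusted p = 0.0608), where the 3 libraries at 8 h were spread widely, and it passed without WT 8 h replicate 3 (0.00149).

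With amyloid-beta at 8 h, WT libraries were higher in Slc40a1 than without it, by 0.54 ± 0.10 (adjusted p = 0.00274). The groups did not overlap, as for 23.1% of all genes. Leaving out each library in turn gave adjusted p from 2.05e-05 to 0.0475, and with only the groups compared it was 0.0902. In PD-1 KO-labelled libraries the difference at 8 h was 0.22 ± 0.10 (adjusted p = 0.593), and the difference of the amyloid-beta effect between the labels, -0.33 (interval -0.61 to -0.04), did not pass (adjusted p = 0.721). Between 8 h and 2 h, both with amyloid-beta, Slc40a1 rose in WT by 0.75 ± 0.10 (adjusted p = 4.5e-06). The amyloid-beta effect in WT at 8 h minus that at 2 h, a comparison added after the data were seen, was 0.56 ± 0.14 and did not pass (adjusted p = 0.0867; 0.00202 without WT 8 h replicate 3), with 0 members called (0.27% of all genes; limma, 2 members at an unadjusted p under 0.05, and 0 adjusted with voom).

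**Figure D4:**
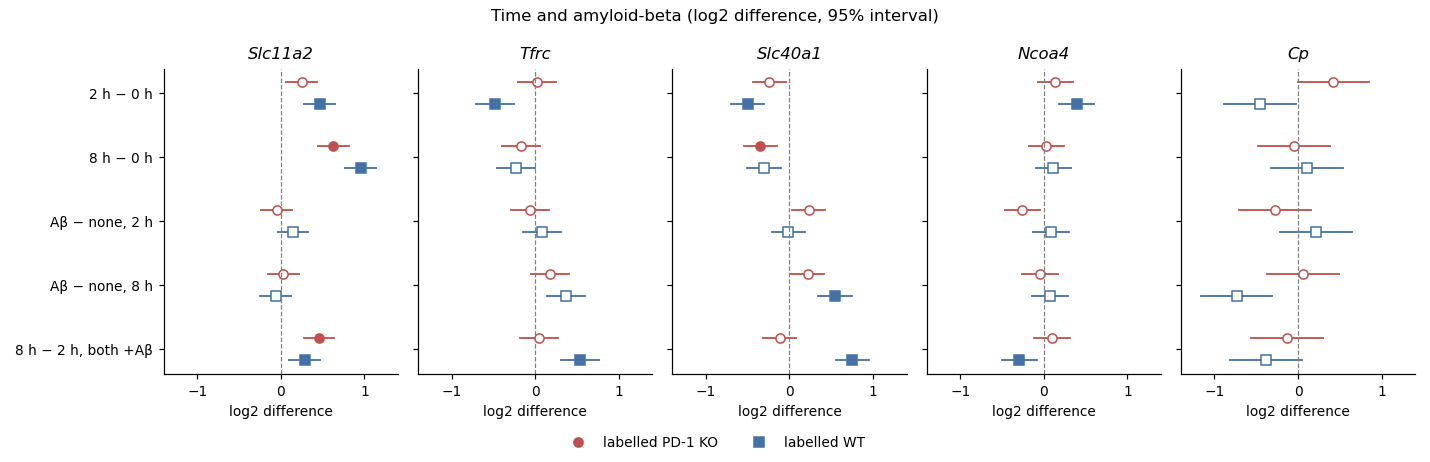
Log2 differences (x axis) over time and with amyloid-beta (rows) for 5 members (panels), with 95% intervals from limma on 3 libraries against 3. Circles are PD-1 KO-labelled libraries and squares those labelled WT, and filled symbols passed the adjusted threshold. Slc11a2 is higher at 8 h than at 0 h under both labels (0.63 and 0.96), and Slc40a1 is higher with amyloid-beta in WT at 8 h (0.54).

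Slc40a1 over Tfrc, exporter over receptor, ran from 2.92 to 4.02 with a median of 3.47 in PD-1 KO-labelled libraries, and from 4.22 to 5.51 with a median of 4.61 in WT. The groups did not overlap in any of the 5 conditions, including 2 h with amyloid-beta, where neither gene differed past the threshold by itself. The average log2 difference was -0.46, with p = 1e-05 in the same permutation test. This ratio too was chosen after the data were seen, and Slc40a1 was already called lower by itself. The p-value therefore does not set the ratio apart from other gene pairs.

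Cp encodes ceruloplasmin, a copper-holding ferroxidase that oxidises the iron leaving through ferroportin and that astrocytes are known to make in the brain. It was higher in PD-1 KO-labelled libraries in each of the 5 conditions, by 2.28 ± 0.21 to 3.32 ± 0.21, and by 2.79 ± 0.09 on average (adjusted p = 1.96e-19). At 2 h it had 2661, 4266 and 3160 in PD-1 KO-labelled libraries, against 309, 240 and 487 in WT. At 8 h it had 2293, 2477 and 2360 in PD-1 KO-labelled libraries, against 465, 505 and 496 in WT. Every library labelled PD-1 KO lay above every WT library, and 9% of all genes also had labels that did not overlap over all libraries. Under all alternatives the call was kept, and the summed astrocyte markers divided the libraries in the same way.

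With amyloid-beta at 8 h, Cp in WT had 345, 254 and 286, all below the values without it (23.1% of all genes had no overlap there). The difference of -0.74 ± 0.21 did not pass (adjusted p = 0.0608; 0.0389 with only the groups compared). The astrocyte sum moved with it, at 1226 to 1343 with amyloid-beta and 1730 to 3230 without, and its part was not tested. Cp overlaps Hps3 on the other strand and whether counting used strand is not stated. Hps3 itself averaged 445 ± 38.5 in PD-1 KO-labelled libraries and 521 ± 70.3 in WT (SD over 15 libraries each, pooled over conditions). The part of Hps3 reads in the Cp signal was not tested.

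**Figure D5:**
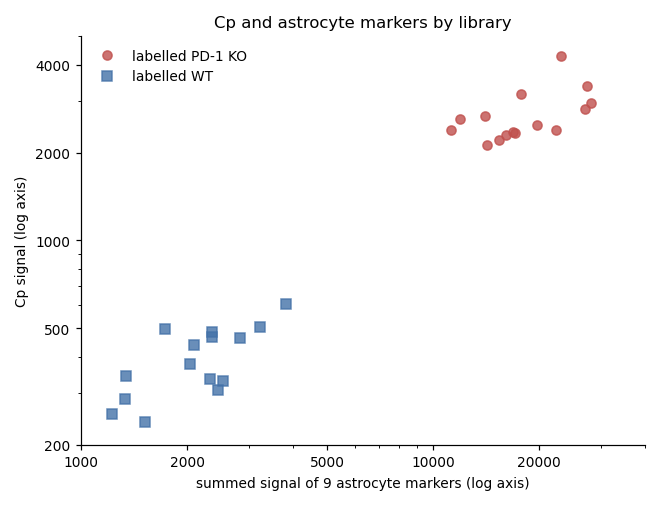
Cp signal (y axis, log scale) against the summed signal of 9 astrocyte markers (x axis, log scale) in the 30 libraries. Circles are the 15 PD-1 KO-labelled libraries and squares the 15 labelled WT. The labels form separate clusters on both axes, with astrocyte sums from 11239 to 28159 for PD-1 KO and from 1226 to 3824 for WT.

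Of 8 other genes of export, iron chaperoning and systemic regulation in the file, 3 were higher and 4 lower in PD-1 KO-labelled libraries over the 5 conditions, where 59.5% of all genes were called, with a median of -0.06, beside -0.02 over all genes. Bmp6, which induces hepcidin in the liver, was higher by 3.18 ± 0.15. Mcoln1, a cation channel of the lysosome, was lower (-0.43 ± 0.04). Hephaestin (Heph), a ferroxidase related to ceruloplasmin, was low, averaging 17.3 in PD-1 KO-labelled libraries and 3.15 in WT, where some libraries lay at the floor.

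Aco1 encodes iron regulatory protein 1, which works as cytosolic aconitase while it holds an iron-sulphur cluster, and Ireb2 encodes iron regulatory protein 2, which is degraded when iron is plentiful. Aco1 ran from 840 to 1095 with a median of 944 in PD-1 KO-labelled libraries, and from 1027 to 1459 with a median of 1083 in WT. Averaged over the conditions it was lower (-0.24 ± 0.04, adjusted p = 3.43e-06). The call at 2 h with amyloid-beta, -0.35 ± 0.09, was kept with each library left out, and was lost with only the groups compared (adjusted p = 0.0661). The call at 2 h was lost without PD-1 KO replicate 1 or 2 or WT replicate 3, and with only the groups compared (0.0565). That at 8 h was lost without any library but PD-1 KO replicate 1, and that at 8 h with amyloid-beta without WT replicate 3, with adjusted p up to 0.160 in these fits. The call at 8 h without amyloid-beta was also lost with quantile normalization (adjusted p = 0.0846) and with only the groups compared (0.068).

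Ireb2 differed little between the labels, by -0.01 on average with an interval from -0.13 to 0.10. It ran from 777 to 1153 with a median of 948 in PD-1 KO-labelled libraries, and from 654 to 1156 with a median of 988 in WT. In WT it was higher at 8 h than at 2 h, both with amyloid-beta (0.46 ± 0.12, adjusted p = 0.00792). That call was lost without WT 2 h amyloid-beta replicate 1 (0.0903) and with only the groups compared (0.0866).

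Of 9 heme handling genes, 1 was higher and 5 were lower in PD-1 KO-labelled libraries on average over the 5 conditions (median -0.14; 59.5% of all genes called), among them the biliverdin reductases Blvra (-0.63 ± 0.06) and Blvrb (-0.27 ± 0.06) and the heme oxygenase Hmox2 (-0.27 ± 0.05). Hmox1, the inducible heme oxygenase, which frees iron from heme, fell in WT at 2 h to a mean of 18978, against 33214 at 0 h (-0.80 ± 0.15). At 8 h with amyloid-beta Hmox1 was lower than at 2 h with it in PD-1 KO-labelled libraries (-0.57 ± 0.15) and higher in WT (0.47 ± 0.15). The difference between these changes was not tested.

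Among 16 genes of mitochondrial iron and iron-sulphur clusters, 1 was higher and 4 lower over the conditions (median -0.08; 59.5% of all genes called), with differences of 0.37 ± 0.06 for Ciapin1 and -0.33 ± 0.07 for Hscb. Slc25a37, which encodes the mitochondrial iron importer mitoferrin 1, was higher in WT at 8 h than at 2 h, both with amyloid-beta, by 1.31 ± 0.20. Nrf2 is a transcription factor that is known to induce ferritin, ferroportin and glutathione genes. Of 10 other targets of it, 7 were higher and 1 lower in PD-1 KO-labelled libraries at 2 h (median 0.50; 32.2% of all genes called), and 1 was higher and 5 lower at 8 h with amyloid-beta (median -0.22; 33.7% of all genes called). Gclm, a subunit of the enzyme that starts glutathione synthesis, fell in WT at 2 h against 0 h (-0.91 ± 0.11), and the difference of that change between the labels passed (1.13 ± 0.16, adjusted p = 0.000722).

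The genes whose group means followed a member most closely were found by Pearson r of log2 values over the 10 group means, among 10710 genes, as a description in which all points share the same libraries. Spp1 (r = 0.975), Dennd4c (0.963) and Mcm9 (0.962) were most like Slc40a1. Lcn2 (r = 0.996), the astrocyte marker Slc1a3 (0.994) and Arnt2 (0.994) were most like Cp. For Slc11a2 these were Casp4 (r = 0.975), Nupr1 (0.970) and Arl5c (0.952), and for Tfrc Mkl2 (0.952), Gmps (0.948) and Fam63b (0.943).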

How the data were processed

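Libraries were made with Illumina TruSeq kits, per the labels' protocols. Tools listed without roles in the submitters' processing notes are DESeq2, R 3.0.2, HISAT 0.1.5 and Partek 6.6, and the build is mm10. The deposited signal is, as its whole-multiple steps show, a gene's reads over each library's size factor, with 1 as the lowest value allowed. The counting program, its annotation and its use of strand are not given in the sources used here.

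A model with a mean for each of the 10 groups was fitted by limma 3.58.1 (R 4.3.3, intensity trend) to log2(value + 1) of genes that reached 10 in at least 3 libraries. Steps were tested on simulated data. No pair of replicates agreed within counting noise, so none was merged, which does not show that they were separate cultures. Members, lists and comparisons were chosen with earlier results of these data known. The text gives all members, counts for each list, up to 4 called list genes with the largest changes, and the 3 genes most like a member. Alternatives were a pseudocount of 10, no filter, TMM factors, quantile normalization, only the groups compared, leaving out each library, and voom on recovered reads, added after the data were seen because the floor kept the values from a count model. UTRs came from GENCODE vM21 (GRCm38, the assembly also called mm10). Figures were drawn with matplotlib 3.10.9.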

Additional observations from a re-analysis of the deposited data

How the results depend on the processing

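Pseudocount, filter, TMM and voom left every member's direction in place among called values. Over all comparisons, 1 call was lost with the pseudocount of 10, 1 without the filter, 3 with TMM and 3 with voom. Among differences between the labels that passed the test under the deposited scaling or quantile normalization, 6 turned direction, all in ferritin or Slc11a1: Fth1 at 2 h to 0.47 and at 8 h with amyloid-beta to 0.41, Ftl1 at 2 h to 0.0687, at 8 h with amyloid-beta to 0.0344 and on average to 0.055, and Slc11a1 at 2 h with amyloid-beta to 0.0602. In 9 more, which passed under neither, the sign changed as well, with Slc40a1 at 2 h with amyloid-beta at 0.07. The cause was not tested. With only the groups compared, which leaves fewer libraries to estimate the spread, members called between PD-1 KO and WT came to 3 at 2 h and 2 at 2 h with amyloid-beta. For 2 h minus 0 h in WT they came to 0, for 8 h minus 2 h with amyloid-beta to 0 in PD-1 KO-labelled libraries and 2 in WT. For 8 h minus 0 h in PD-1 KO-labelled libraries they came to 1 with only the groups compared, with TMM and with voom.

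Without 1 library at a time, members called between PD-1 KO and WT ran from 3 to 4 at 0 h, 2 to 6 at 2 h, 3 to 4 at 2 h with amyloid-beta, 2 to 3 at 8 h, 4 to 7 at 8 h with amyloid-beta and 7 to 8 on average. For 2 h minus 0 h they ran from 2 to 5 in WT and for its difference between labels from 0 to 1. For 8 h minus 0 h they were 1 in PD-1 KO-labelled libraries and 1 to 2 in WT. For 8 h minus 2 h with amyloid-beta they ran from 0 to 1 in PD-1 KO-labelled libraries and 3 to 6 in WT. For amyloid-beta in WT they ran from 1 to 2 at 8 h, and for 8 h minus 2 h of that effect from 0 to 1. The average difference of Tfrc (-0.12, adjusted p = 0.0464) was lost in 19 of 30 such fits.

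The planned count model was not run, since the floor hides low reads. No paired analysis was possible because the labels give only serial library numbers and no shared replicate. All members lay far above the floor, and precision was limited by the 3 libraries of a group.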
